A study of Mus musculus with 23 samples.

Results

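Mitosis genes were the 38 genes of a list covering cyclins and their kinase, mitotic kinases, the spindle checkpoint, the kinetochore, spindle motors, exit from mitosis, cytokinesis, and mitotic chromosomes. They were matched by gene symbol in a table of 17644 genes, and each was required to have at least 10 counts in at least 5 of 23 libraries. All 38 were found and all 38 passed, among 14364 genes tested in the series. RNA-Seq had been performed on marrow-depleted femur and tibia from female C57BL6/N mice at 11 weeks of age, with 1 library per mouse. The groups were WT mice given saline (WT Control, n = 5), WT mice with type 1 diabetes (T1D) of 3 weeks duration after i.p. streptozotocin at 100 mg/kg (WT T1D, n = 6), mice labelled Sarm1-KO given saline (KO Control, n = 6), and Sarm1-KO by label with T1D after the same treatment (KO T1D, n = 6). The line labelled Sarm1-KO is described as a global deletion, not one limited to a cell type. Marrow had been spun out of the bones before extraction, which leaves an unstated number of marrow cells behind.

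Mitosis begins when Cdk1, bound to A-type and B-type cyclins, phosphorylates many proteins at once, and it ends when the anaphase promoting complex marks cyclin B and securin for destruction. In between, kinetochores attach chromosomes to the spindle, the checkpoint holds anaphase back until every chromosome is attached, and kinesin motors move the spindle poles and the midzone. RNAs of these genes rise together in G2 and M phase, so they come mainly from dividing cells. Dividing cells of bone and marrow include blood cell precursors, among them erythroid precursors. Which cells gave these RNAs was not measured here.

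Promoters of such genes commonly hold a CCAAT box, which NF-Y binds, and a cell cycle genes homology region (CHR), which the DREAM and B-Myb complexes bind. RefSeq promoters (GRCm38.p6) were at hand for 33 of the 38 genes. Ccna2, Aurkb, Kif20a, Tpx2, and Dlgap5 were not among them. Shown here are 6 of the genes called higher in WT T1D, from 120 bases before to 30 bases after the annotated start, read along the gene. Capitals mark the letters CCAAT or TTTGAA or TTCGAA, on either strand (ATTGG and TTCAAA on the other strand).
Nusap1 (chr2:119618178-119618327, forward strand): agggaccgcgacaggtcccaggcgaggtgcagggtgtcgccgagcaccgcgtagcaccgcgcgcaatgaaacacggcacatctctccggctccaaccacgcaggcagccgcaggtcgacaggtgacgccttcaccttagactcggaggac
Ccnb1 (chr13:100786457-100786606, reverse strand): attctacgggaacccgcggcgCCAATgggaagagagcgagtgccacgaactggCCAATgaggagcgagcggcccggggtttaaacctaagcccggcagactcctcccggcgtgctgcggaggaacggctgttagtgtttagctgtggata
Cdk1 (chr10:69352883-69353032, reverse strand): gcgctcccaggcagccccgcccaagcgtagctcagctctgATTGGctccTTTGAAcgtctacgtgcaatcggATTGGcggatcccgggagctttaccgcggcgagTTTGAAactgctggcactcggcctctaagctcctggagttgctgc
Ube2c (chr2:164769809-164769958, forward strand): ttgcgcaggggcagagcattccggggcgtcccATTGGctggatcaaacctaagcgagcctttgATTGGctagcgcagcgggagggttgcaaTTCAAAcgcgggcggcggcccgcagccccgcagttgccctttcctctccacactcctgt
Cenpa (chr5:30666766-30666915, forward strand): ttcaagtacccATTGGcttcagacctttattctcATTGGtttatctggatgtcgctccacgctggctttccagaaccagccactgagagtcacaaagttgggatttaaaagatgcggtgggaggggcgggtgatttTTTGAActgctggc
Kif11 (chr19:37376262-37376411, forward strand): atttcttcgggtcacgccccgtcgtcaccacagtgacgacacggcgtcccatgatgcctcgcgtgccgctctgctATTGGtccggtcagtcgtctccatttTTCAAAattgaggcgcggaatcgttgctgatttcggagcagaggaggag

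In the stretches shown, Cdk1 had a pair of CHR matches and a pair of CCAAT boxes, all before its start, Ube2c and Kif11 had a CHR with 1 or more CCAAT boxes upstream of it, and Cenpa had its CHR after the start. Ccnb1 had a pair of CCAAT boxes and no CHR in these letters. Nusap1, which with Cdca3 had the highest log2 fold change in WT T1D, had neither. Within 250 bases before the start, a CCAAT match was found in 26 of 33 genes (78.8%, 95% Wilson interval 62.2% to 89.3%), compared with 37.5% of all 27025 genes with a promoter in the table. A CHR match was found in 13 of 33 (39.4%, 24.7% to 56.3%), compared with 19.6% of all genes with a promoter. When the 50 bases after the start were included, 27 of 33 genes had a CHR (81.8%, 65.6% to 91.4%), compared with 21.7% of all genes with a promoter and 16.9% of the 11351 tested genes with one. The table lists overlapping promoters from 2 starts for Ect2, Prc1, and Bub3, and a match in both was counted once, at the first-listed start. Of 36 CHR matches, 26 began at or after position −50 (in 25 genes) and 18 lay after the start (in 17 genes), and 24 of 33 genes had both a CHR and a CCAAT match. The E2F letters searched (TTTCGCGC or TTTGGCGC) matched in 1 gene, Cdk1 (3.03%), compared with 0.759% of all genes with a promoter. Genes called in WT T1D had a CHR in 6 of 8 cases and the others in 21 of 25. A match in these letters is a description and not a measured binding site.

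**Figure D1:**
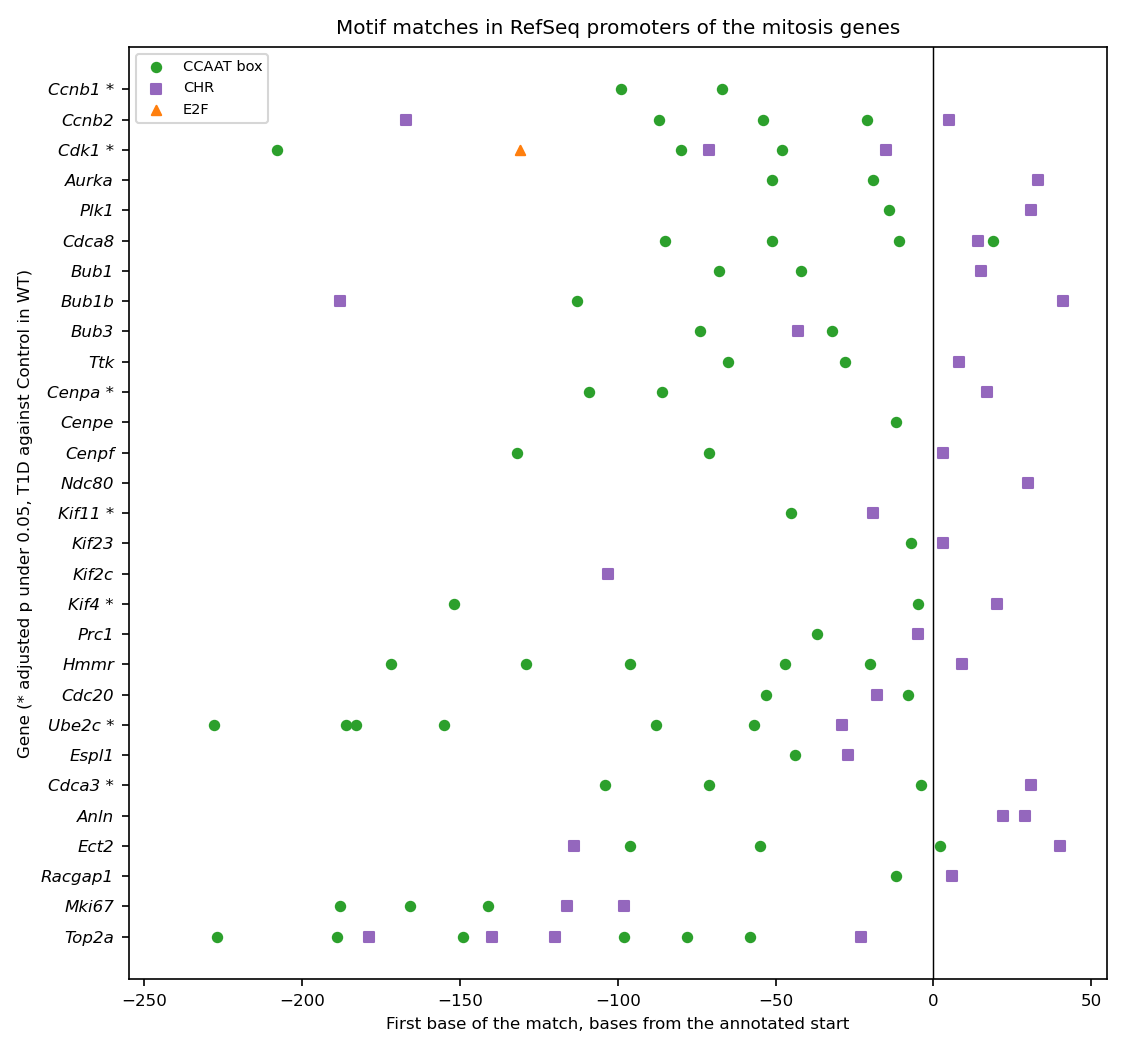
Position of each motif match in the RefSeq promoters of the mitosis genes, with the first base of the match in bases from the annotated start on the x axis and 1 gene per row (29 genes with a match; * marks genes with adjusted p under 0.05 for T1D against Control in WT). CHR matches lie mostly between position −50 and the end of the window, and CCAAT matches mostly upstream of them.

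Before the comparisons, 3 facts of the libraries bear on every result. Total counts per library ranged from 16938101 to 20135592, and no mitosis gene had fewer than 276 counts in any library. Sarm1 itself had few counts and overlapped between the genotypes, with medians of 17 counts in WT Control (15 to 32), 12 in WT T1D (6 to 21), 14 in KO Control (5 to 29), and 23 in KO T1D (15 to 28). The median was lower in KO than WT for Control and higher for T1D, so these counts did not check the genotypes and the labels were used as given. WT T1D libraries A3905 and A3906 stood apart, with 3738 and 3224 TPM summed over 9 osteoblast markers, compared with 37310 to 83629 TPM in the other 21 libraries. Cartilage markers were low in them as well, at 36 and 45 TPM compared with 111 to 583 TPM. So were megakaryocyte markers, at 324 and 303 TPM compared with 623 to 967 TPM. Osteocyte markers (231 and 251 TPM) lay within the range elsewhere, 102 to 344 TPM. Osteoclast markers, at 2221 and 2474 TPM, were above the other libraries, which had 893 to 2213 TPM. In A3905 and A3906, the 14 measured erythroid markers summed to 472231 and 470934 TPM, compared with 235844 to 410524 TPM elsewhere.

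All 38 mitosis genes were well expressed. Mean TPM over 23 libraries, a level per transcript length, ranged from 10.7 for Cenpf, a kinetochore protein, to 520 for Ube2c, the ubiquitin-conjugating enzyme of the anaphase promoting complex. The median was 50.2 TPM, compared with 9.91 TPM over all tested genes, and all 38 were above that value. After Ube2c, the highest levels were those of Mki67 at 193 TPM, Cdca3 at 162 TPM, Birc5 at 161 TPM, and Ccna2 at 159.9 TPM, and the lowest after Cenpf were those of Ttk at 11.0 TPM, Bub1 at 12.2 TPM, and Cenpe at 12.5 TPM.

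To ask how diabetes altered these genes in WT bone, WT T1D was compared with WT Control. RNA of mitosis genes was modestly higher in WT T1D. On TMM-scaled counts, 11 of the 38 genes (28.9%) rose (edgeR quasi-likelihood test, Benjamini-Hochberg adjusted p under 0.05), compared with 1.5% of all tested genes that were called higher, and 0 fell. The 11 genes were Nusap1, Cdca3, Ccnb1, Ube2c, Kif4, Cdk1, Aurkb, Cenpa, Kif11, Tpx2, and Kif20a, and their adjusted p values lay between 0.0367 and 0.0494, close to the threshold. The log2 fold change was above 0 for all 38 on this scale, from 0.16 for Espl1 to 0.51 for Nusap1, with a median of 0.32 (1.25-fold) beside −0.01 over all genes; unscaled TPM (limma on log2(TPM + 1)) gave values above 0 for 23 of 38, with a median of 0.02 beside −0.24 over all genes, which is 0.26 above that shift. Unadjusted p was under 0.05 for 35 of 38. For this and later counts of unadjusted p, the share of all genes tested was not computed. DESeq2 called 19 (50%), compared with 4.13% of all genes called higher, and these included all 11.

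This count changed with the libraries included, in the KO groups as well as in WT. Without A3905 and A3906 together, 0 of 38 were called by edgeR, as were 0 of all genes tested, while 19 had unadjusted p under 0.05 and the median log2 fold change was 0.22, with all 38 above 0. Leaving out 1 library at a time gave from 0 to 22 calls and medians from 0.28 to 0.37, while all genes called higher ranged from 0 to 675. By library, 16 were called without WT Control A1757 and 15 without WT T1D A1758, beside 402 and 330 of all genes called higher. Calls were 0 without WT Control A3767, A3903, A3904, or A3907, beside 0, 2, 6, and 0 of all genes. They were also 0 without WT T1D A1787, A3905, or A3906, beside 20, 4, and 6 of all genes. Without WT T1D A1764 or A3909 they were 21 or 22, beside 583 and 675 of all genes. Leaving out a KO library also moved the count (all genes called higher in parentheses). Without KO Control A3670, 1 mitosis gene was called (31). Without KO Control A3672, A3673, A3679, or A3680, 3 were called (126, 53, 58, and 60). Without KO T1D A3675, A3676, A3681, or A3682, 3 were called (46, 60, 52, and 100). Calls were 5 without KO T1D A3683 (147), 10 without KO T1D A3674 (193), and 15 without KO Control A3766 (354). Each run repeated the count filter, scaling, shared estimate of the spread, and adjustment. Which of these moved the count was not tested. Mouse IDs formed an A17 series (1 WT Control, 3 WT T1D) and an A36 to A39 series, which the labels do not describe as a batch. Within A36 to A39, where WT T1D was A3905, A3906, and A3909, 27 of 38 were called (71.1%), compared with 7.82% of all genes called higher, and the median was 0.45. The A17 series had 1 control, so it gave no test of its own.

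Every WT T1D library was above every WT Control library for 7 of the 38 genes (Cenpa, Kif11, Kif20a, Kif2c, Kif4, Nusap1, and Ect2), compared with 1.32% of all genes tested. At least 5 of 6 were above for 18 genes, and at least 4 of 6 for 28 genes. The shares of all genes with such partial separation were not computed, so these counts are description only.

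**Figure D2:**
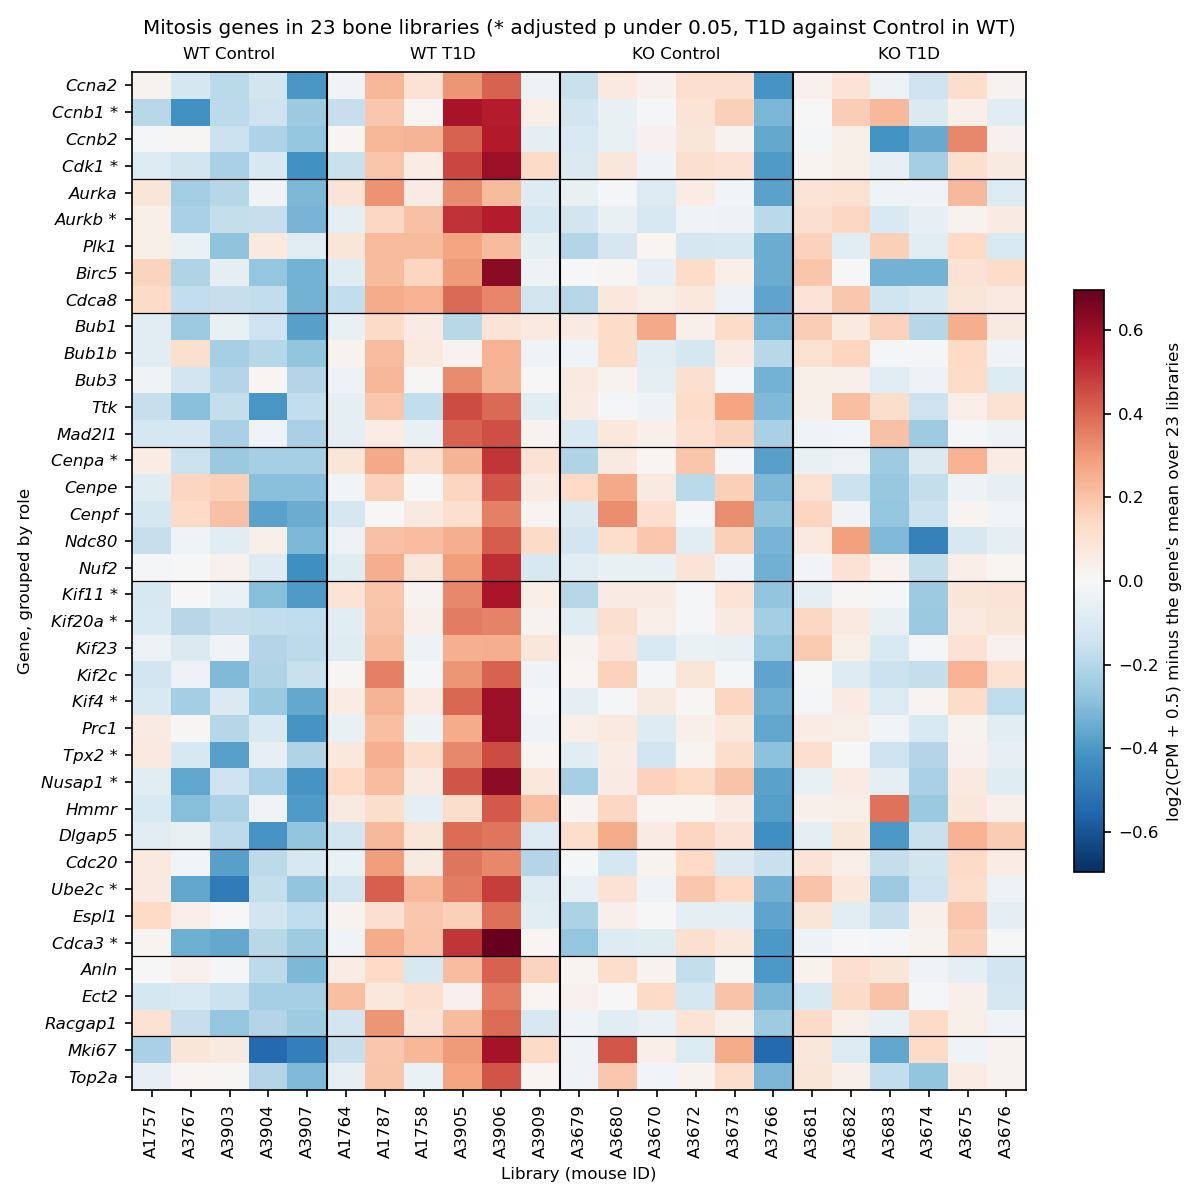
Level of each of the 38 mitosis genes (rows, grouped by role) in each of the 23 libraries (columns, by group), as log2(CPM + 0.5) minus the gene's mean over all libraries. A3906 and A3905 in WT T1D are the darkest red columns, and A3766 in KO Control and A3907 in WT Control the bluest.

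Among the cyclins and their kinase, 2 of 4 genes rose. Ccnb1, cyclin B1, was at 63.6, 54.2, 64.1, 66.0 and 61.1 CPM in the 5 WT Control libraries and 65.1 to 109 CPM (median 79.0) in the 6 WT T1D libraries. A3905 and A3906 were far above the rest and A1764 overlapped the controls, and the log2 fold change was 0.47 ± 0.12 (SE) with an adjusted p of 0.0451 (edgeR). Cdk1, the kinase that cyclin B1 activates, was at 90.9, 88.8, 83.1, 89.96 and 72.6 CPM in the 5 WT Control libraries and 87.2 to 147 CPM (median 109) in the 6 WT T1D libraries. Again A3906 and A3905 were highest and A1764 lay within the control range, with a log2 fold change of 0.43 ± 0.11 (SE) and an adjusted p of 0.0494 (edgeR). Ccnb2 (0.37) and Ccna2 (0.33), the remaining cyclins, had adjusted p values of 0.0856 and 0.0647 (edgeR), and DESeq2 called both. In mice labelled KO, the 4 genes had log2 fold changes from 0.02 to 0.08 with T1D.

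Of the 5 mitotic kinases and chromosomal passenger proteins, Aurkb rose. Aurora B kinase, encoded by Aurkb, corrects faulty attachments of chromosomes to the spindle. It was at 76.4, 63.2, 65.9, 66.3 and 59.2 CPM in the 5 WT Control libraries and 68.0 to 109 CPM (median 83.7) in the 6 WT T1D libraries, with A3905 and A3906 highest and A1764 and A3909 within the range of the controls. The log2 fold change was 0.39 ± 0.10 (SE) with an adjusted p of 0.0473 (edgeR). Plk1, a kinase of mitotic entry and spindle assembly, was at 143, 134, 114, 146 and 132 CPM in the 5 WT Control libraries and 132 to 168 CPM (median 162) in the 6 WT T1D libraries, so that 5 of 6 libraries were above every control and A3909 was not. Its log2 fold change was 0.22 ± 0.08 (SE) with an adjusted p of 0.116 (edgeR). Aurka, Birc5, and Cdca8 had log2 fold changes of 0.29, 0.35, and 0.30 and did not pass by edgeR, while DESeq2 called Aurka.

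None of the 5 spindle checkpoint genes passed the edgeR test, and unadjusted p was under 0.05 for each, while DESeq2 called Ttk. Their log2 fold changes ranged from 0.20 for Bub1 to 0.38 for Ttk, the kinase that starts checkpoint signalling. Bub1b, the checkpoint protein BubR1, was at 69.8 ± 7.87 CPM (SD, n = 5) in WT Control and 81.4 ± 6.37 CPM (SD, n = 6) in WT T1D, with an adjusted p of 0.0898 (edgeR). Bub3, which carries BubR1 and Bub1 to kinetochores, was at 129 ± 9.22 CPM (SD, n = 5) and 153 ± 16.7 CPM (SD, n = 6), with an adjusted p of 0.0847 (edgeR). Mad2l1, the Mad2 inhibitor of Cdc20, had a log2 fold change of 0.30.

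Among the 5 kinetochore genes, Cenpa rose. CENP-A is the histone H3 variant that marks centromeres. Cenpa was at 61.5, 53.4, 49.5, 50.5 and 50.4 CPM in the 5 WT Control libraries and 62.9 to 84.1 CPM (median 67.1) in the 6 WT T1D libraries, with no overlap between the groups and a log2 fold change of 0.39 ± 0.10 (SE) (adjusted p = 0.0473, edgeR). The log2 fold changes of Cenpe and Cenpf were the lowest of the group. Cenpe, a kinetochore kinesin, was at 67.8 ± 10.6 CPM (SD, n = 5) in WT Control and 77.6 ± 9.64 CPM (SD, n = 6) in WT T1D, and 1 library, A3906, was above every control. Its log2 fold change was 0.20 ± 0.11 (SE) (adjusted p = 0.303, edgeR), and that of Cenpf was 0.16 ± 0.12 (SE) (adjusted p = 0.433, edgeR). Ndc80, which binds microtubule ends, was at 19.4 ± 1.81 CPM (SD, n = 5) and 24.1 ± 2.56 CPM (SD, n = 6) with an adjusted p of 0.126 (edgeR), and its partner Nuf2 had a log2 fold change of 0.27.

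Spindle motors and microtubule-binding proteins held the most calls, with 5 of 10 genes higher. Nusap1, which bundles spindle microtubules, was at 132, 108, 125, 119 and 104 CPM in the 5 WT Control libraries and 145 to 214 CPM (median 157) in the 6 WT T1D libraries. All 6 diabetic libraries were above all 5 controls, and A3906 and A3905 were highest. The log2 fold change was 0.51 ± 0.11 (SE) with an adjusted p of 0.0367 (edgeR). Kif4, a chromokinesin, was at 58.1, 53.2, 58.5, 52.2 and 48.9 CPM in the 5 WT Control libraries and 62.0 to 94.9 CPM (median 69.6) in the 6 WT T1D libraries, again without overlap, with a log2 fold change of 0.45 ± 0.10 (SE) (adjusted p = 0.0367, edgeR). Kif11, the motor that pushes the spindle poles apart, was at 139, 149.6, 145, 122 and 114 CPM in the 5 WT Control libraries and 152 to 223 CPM (median 166) in the 6 WT T1D libraries. The groups did not overlap, and the log2 fold change was 0.39 ± 0.10 (SE) (adjusted p = 0.0473, edgeR). Tpx2, which activates Aurora A on the spindle, and Kif20a, a midzone kinesin, had log2 fold changes of 0.35 ± 0.09 (SE) and 0.32 ± 0.08 (SE). Their means were 185 ± 21.1 CPM (SD, n = 5) and 99.8 ± 2.55 CPM (SD, n = 5) in WT Control. In WT T1D they were 235 ± 28.0 CPM (SD, n = 6) and 125 ± 15.8 CPM (SD, n = 6). Kif23, Kif2c, Prc1, Hmmr, and Dlgap5 did not pass by edgeR, with log2 fold changes from 0.23 to 0.36, while DESeq2 called Kif2c and Hmmr.

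In the group of anaphase and exit, Ube2c and Cdca3 rose and Cdc20 and Espl1 did not pass by edgeR or DESeq2. Cdca3, a trigger of mitotic entry that is itself destroyed in G1, was at 171, 134, 132, 148 and 142 CPM in the 5 WT Control libraries and 166 to 275 CPM (median 198) in the 6 WT T1D libraries. A3906 and A3905 were highest, A1764 and A3909 lay within the control range, and the log2 fold change was 0.51 ± 0.11 (SE) (adjusted p = 0.0367, edgeR). Cdca3 was also the 1 gene of the 38 called on unscaled TPM by limma, beside 83 of 14364 genes called higher on log2(TPM + 1). Ube2c was at 339.6, 253, 233, 290.2 and 269 CPM in the 5 WT Control libraries and 298 to 454 CPM (median 399) in the 6 WT T1D libraries, with overlap in A1764 and A3909 and a log2 fold change of 0.46 ± 0.12 (SE) (adjusted p = 0.0494, edgeR). Cdc20, the activator of the anaphase promoting complex, was at 60.9 ± 7.06 CPM (SD, n = 5) and 73.5 ± 11.6 CPM (SD, n = 6), with an adjusted p of 0.11 (edgeR). Espl1, the separase that cuts cohesin, had the lowest log2 fold change of the 38, 0.16 ± 0.09 (SE), at 75.5 ± 6.84 CPM (SD, n = 5) and 84.4 ± 9.41 CPM (SD, n = 6).

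The cytokinesis and chromosome genes held no calls by edgeR, while DESeq2 called Ect2 and Racgap1. Anln, a scaffold of the contractile ring, was at 67.7 ± 6.75 CPM (SD, n = 5) in WT Control and 80.1 ± 9.77 CPM (SD, n = 6) in WT T1D, with a log2 fold change of 0.24 ± 0.09 (SE) (adjusted p = 0.129, edgeR), and Ect2 and Racgap1, which switch on RhoA at the division plane, had log2 fold changes of 0.31 and 0.29. Mki67, the Ki-67 protein that coats mitotic chromosomes, was at 1100, 1360, 1340, 881 and 926 CPM in the 5 WT Control libraries and 1149 to 1921 CPM (median 1485) in the 6 WT T1D libraries. Its controls were spread widely, and its log2 fold change was 0.42 ± 0.15 (SE) with an adjusted p of 0.108 (edgeR). Top2a, the topoisomerase that untangles sister chromatids, was at 354 ± 34.2 CPM (SD, n = 5) and 421 ± 59.4 CPM (SD, n = 6), with an adjusted p of 0.15 (edgeR).

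**Figure D3:**
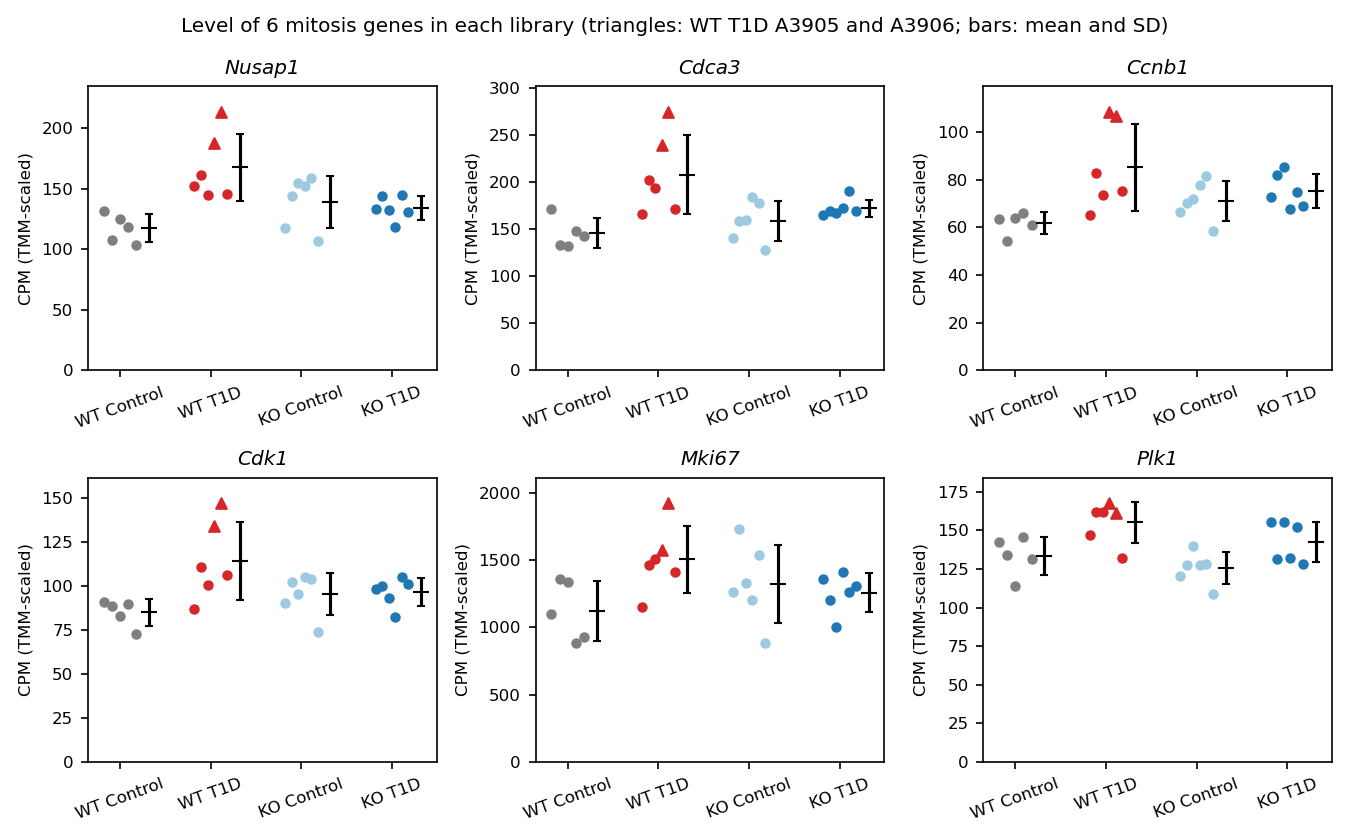
Level of 6 mitosis genes in each library, as TMM-scaled CPM on a linear y axis that starts at 0, by group (points, 1 per library; triangles, WT T1D A3905 and A3906; bars, mean and SD). For Nusap1 the WT T1D libraries sit between 145 and 214 CPM, all above WT Control, and the KO groups overlap.

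Whether mice labelled Sarm1-KO showed the same difference was asked by comparing KO T1D with KO Control. By edgeR, 0 of 38 mitosis genes were called, beside 0.0% of all genes, and 1 had unadjusted p under 0.05, which was Plk1. DESeq2 called 0 as well. The median log2 fold change was 0.03, with 29 genes above and 9 below 0, from −0.13 for Cenpe to 0.18 for Plk1; on counts without scaling factors, 15 were above 0 and the median was −0.02, and on unscaled TPM 14 were above 0. Plk1 was at 109 to 139.9 CPM (median 128) in KO Control and 128 to 156 CPM (median 142) in KO T1D, with 3 of 6 diabetic libraries above every control and a log2 fold change of 0.18 ± 0.08 (SE). Nusap1 was at 107 to 159 CPM (median 148) and 118 to 145 CPM (median 133), with a log2 fold change of −0.05 ± 0.11 (SE). Cdk1 was at 73.7 to 105 CPM (median 99.0) and 82.5 to 105 CPM (median 99.3), with a log2 fold change of 0.02 ± 0.11 (SE). Ccnb1 was at 58.4 to 81.8 CPM (median 71.2) and 67.9 to 85.2 CPM (median 73.7), with a log2 fold change of 0.08 ± 0.11 (SE). KO T1D overlapped KO Control for each of these genes, and for no mitosis gene was every KO T1D library above every KO Control library. The share of all genes with such separation in KO was not computed, so this count is description only. Mki67 was at 1324 ± 290.5 CPM (SD, n = 6) in KO Control and 1257 ± 145 CPM (SD, n = 6) in KO T1D.

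The difference between the genotypes in the effect of T1D was tested as an interaction. The interaction log2 fold change was below 0 for all 38 genes, with a median of −0.29 beside 0.01 over all genes, from −0.57 ± 0.15 (SE) for Nusap1 to −0.03 ± 0.11 (SE) for Plk1; on unscaled TPM, 26 of 38 were below 0, with a median of −0.04 beside 0.20 over all genes. By edgeR, 0 of 38 were called, beside 0.0% of all genes, with a lowest adjusted p of 0.479, while 20 had unadjusted p under 0.05. DESeq2 also called 0, with 21 under 0.05, and the share of all genes at that unadjusted cutoff was not computed. A different effect of T1D in the 2 genotypes was therefore not shown for any single mitosis gene. The interaction was made of the same libraries as the WT and KO comparisons, which share none with each other, so it is not separate evidence from them. Without A3905 and A3906, the interaction median was −0.19, 36 genes were below 0, and 4 had unadjusted p under 0.05.

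**Figure D4:**
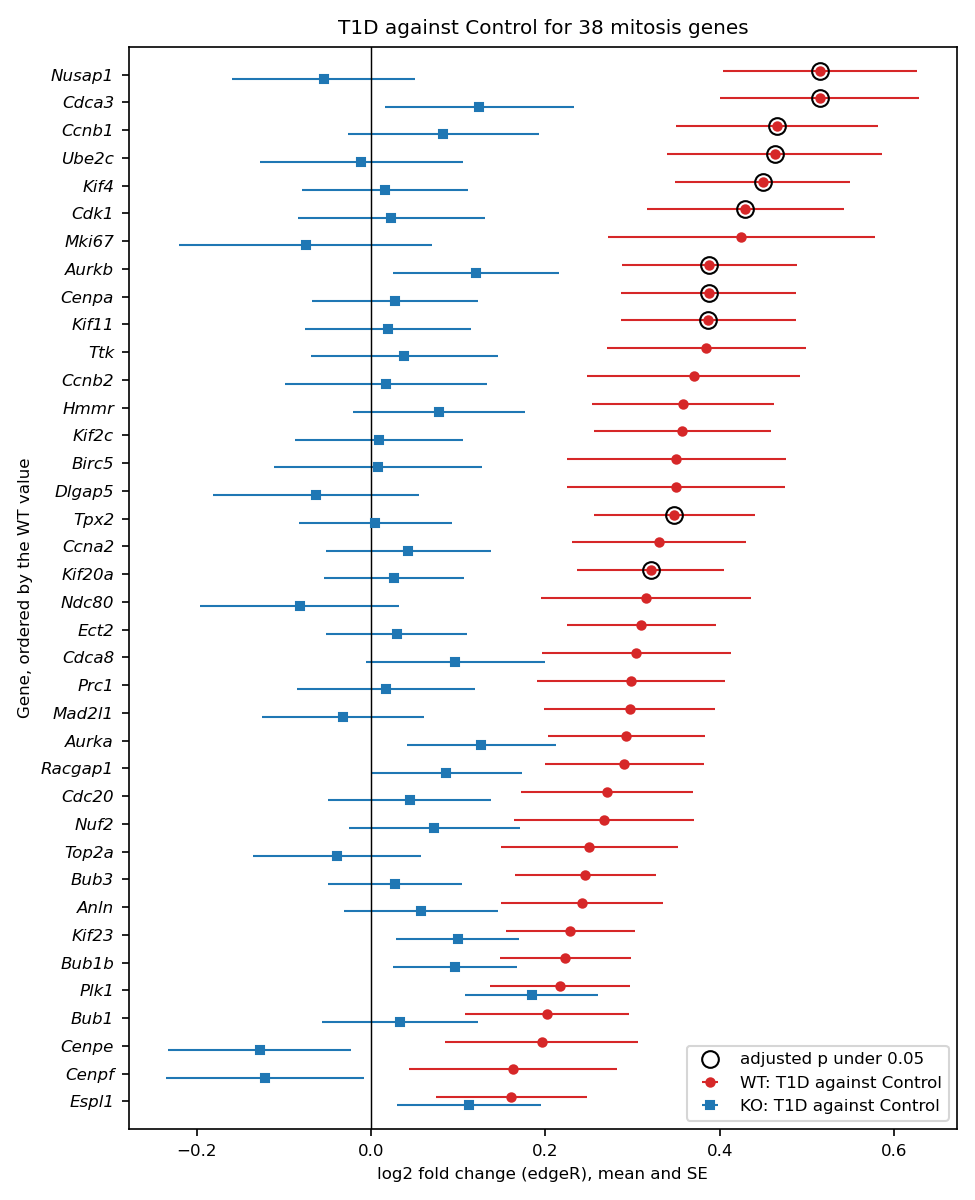
log2 fold change of T1D against Control for each mitosis gene in WT (red circles) and in mice labelled KO (blue squares), with SE from the edgeR fit; black rings mark adjusted p under 0.05. WT values run from 0.16 to 0.51 and KO values from −0.13 to 0.18.

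Comparing genotypes within a state, KO Control against WT Control gave 0 of 38 calls by edgeR, beside 0.0278% of all genes called in either direction. Of the 38, 3 had unadjusted p under 0.05 (Bub1, Ttk, and Nusap1), and DESeq2 called 0. The median log2 fold change was 0.11, with 36 genes higher in KO Control. KO T1D against WT T1D gave 0 of 38 calls, beside 0.0905% of all genes, with 10 genes at unadjusted p under 0.05 and 0 calls by DESeq2. The median was −0.17, with 37 genes lower in KO T1D; on unscaled TPM it was 0.04 beside 0.17 over all genes. Nusap1 had the lowest value, −0.32 ± 0.11 (SE), and Bub1, at 0.07 ± 0.09 (SE), was the gene above 0. Within A36 to A39 mice, 6 of 38 genes were called lower in KO T1D, compared with 5.12% of all genes called lower. Without A3905 and A3906 the median was −0.06 and 0 genes had unadjusted p under 0.05.

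The members' levels moved together across libraries. On TMM-scaled CPM, A3906 had the highest level of all 23 libraries for 28 of the 38 genes and A3905 for 9. The 1 remaining gene was highest in KO Control A3670. The lowest level was in KO Control A3766 for 16 genes and in WT Control A3907 for 10. The mean log2(CPM + 0.5) over the 38 genes was 7.02 in A3906 and 6.88 in A3905, followed by 6.79 in WT T1D A1787, and it was lowest in A3766 at 6.26 and A3907 at 6.30. It ranged from 6.30 to 6.55 in WT Control, 6.56 to 7.02 in WT T1D, 6.26 to 6.66 in KO Control, and 6.45 to 6.68 in KO T1D, so that in WT the groups did not overlap, by a narrow margin, and in KO they did. Summed TPM of the 38 genes overlapped in each genotype, at 2404 to 2707 in WT Control, 2540 to 2964 in WT T1D, 2384 to 3124 in KO Control, and 2389 to 2930 in KO T1D. By this sum A3906 was at 2947 and A3905 at 2589, and the highest of the 23 libraries was KO Control A3680 at 3124.

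Erythroid markers moved in the same direction as the mitosis genes. All 14 of 14 tested erythroid markers, of 15 listed, had a log2 fold change above 0 in WT T1D, with a median of 0.62 on TMM-scaled counts and 0.32 on unscaled TPM, and 7 rose, among them Rhag (0.94) and Slc4a1 (0.64), membrane proteins of the red cell. Hemoglobin genes, whose near-identical copies make single values uncertain, took a median of 15.7% of counts in WT T1D (12.3% to 21.4%), compared with 10.2% in WT Control (9.73% to 13.9%), 11.1% in KO Control (8.01% to 15.8%), and 11.7% in KO T1D (10.5% to 14.0%). The library with the lowest mitosis gene level, A3766, also had the lowest erythroid sum, 235844 TPM, and the highest osteoblast sum, 83629 TPM. Other libraries went the other way. In KO T1D, A3674 had the highest erythroid sum, 381408 TPM, and the lowest mean log2 CPM of the mitosis genes, 6.45. KO Control A3679 had a lower erythroid sum than WT Control A3907, 274058 compared with 287567 TPM. The mean log2 CPM was nevertheless higher in A3679, 6.52 compared with 6.30. Without A3905 and A3906, the erythroid median was 0.41 and 0 of the 14 passed, as did 0 of all genes tested. In bulk bone, a larger share of dividing or erythroid cells cannot be told apart from more RNA per cell. The part of erythroid content in the mitosis gene difference was not tested.

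**Figure D5:**
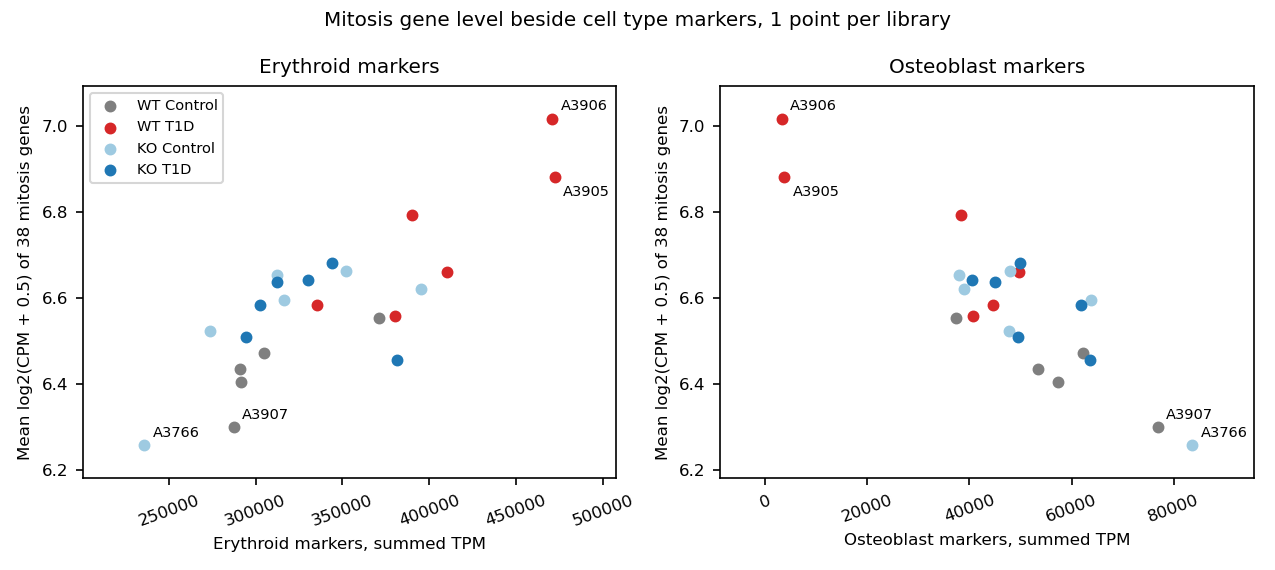
Mean log2(CPM + 0.5) of the 38 mitosis genes in each library (y axis) beside the summed TPM of 14 erythroid markers (left) and 9 osteoblast markers (right) with 1 point per library colored by group. CPM are TMM-scaled and TPM are not. A3905 and A3906 are at the top of both plots, farthest right for erythroid and farthest left for osteoblast markers, and A3766 and A3907 are at the bottom.

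Other genes of division were described by 4 lists in WT T1D. Of 43 further mitosis genes, 2 rose, Ckap2, a spindle protein, at 0.39 and Cdc25b, a phosphatase that activates Cdk1, at 0.45 (adjusted p = 0.0494 and 0.0499, edgeR), and 27 had unadjusted p under 0.05. Of the 43, 42 were above 0, with a median of 0.26, which on unscaled TPM became −0.02 beside −0.24 over all genes. Kif18a, a kinesin that shortens microtubules, had the highest log2 fold change after Cdc25b, 0.44, and did not pass. In contrast, 0 of 12 subunits and activators of the anaphase promoting complex passed by edgeR, 1 had unadjusted p under 0.05, and the median was −0.05; the values farthest from 0 were those of Fzr1, an activator, at 0.31 and Cdc27 at 0.17, although that ubiquitin ligase works with Cdc20 and Ube2c. In G1 and S phase, 6 of 21 genes rose, namely E2f2 (0.62), Tk1 (0.54), Ccne1 (0.52), E2f1 (0.46), E2f8 (0.44), and Pcna (0.41), and the median was 0.21 or, on unscaled TPM, −0.06. Of 12 cell cycle inhibitors, Rbl1, a pocket protein of the retinoblastoma family, rose (0.28), and Cdkn1a, the p21 inhibitor, had a log2 fold change of −0.42 that did not pass (adjusted p = 0.165, edgeR). The median of the inhibitors was 0.18, or −0.10 on unscaled TPM. This value and that of the G1 and S phase genes stood beside the same −0.24 over all genes. In KO T1D against KO Control, 0 genes of these 4 lists were called by edgeR, and in the order above 2, 0, 0, and 1 had unadjusted p under 0.05. In the interaction 0 were called as well, with 14, 0, 7, and 5 under 0.05.

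Some values could include reads of other genes. Exons of 9 mitosis genes overlap an exon of a gene on the opposite strand in GENCODE vM21 (GRCm38), among them 4 of the 11 called genes, namely Nusap1 with Oip5, Kif4 with Pdzd11, Kif20a with Cdc23, and Ube2c with Tnnc2. The libraries kept strand, but whether strand was used in counting is not given in the sources used here. Tnnc2, a troponin of fast muscle, ranged from 34.3 to 1400 TPM across libraries while Ube2c ranged from 422.9 to 632.9 TPM. Whether reads of an opposite-strand gene entered any of these values was not tested. Ccnb1, Ccnb2, and Kif4 have a named pseudogene each.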

How the data were processed

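Bulk RNA-Seq of marrow-depleted femur and tibia covered 23 female mice, 1 library each, grouped by the library labels. Per the study's methods and labels, poly(A) RNA was read as pairs on DNBSEQ, SOAPnuke removed poor reads, and HISAT and Bowtie2 placed the rest on GRCm38.p6. The authors deposited unnormalized expected counts per gene from RSEM, which hold whole numbers only. The authors also deposited TPM, scaled by transcript length and library total at the sequencing provider.

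A gene was fitted if 5 or more libraries had 10 or more counts (14364 genes), using edgeR 4.0.16 (TMM, quasi-likelihood, 4 group means over all 23 libraries) in R 4.3.3, and p values were adjusted by Benjamini-Hochberg over all of them. CPM are TMM-scaled, and scores are means of log2(CPM + 0.5). P values measure the spread between mice. DESeq2 1.42.0, limma 3.58.1 on log2(TPM + 1) and log2(TPM + 0.1), RLE factors, no count filter, the mouse ID series, and left-out libraries were alternatives, and total counts without scaling factors were added after seeing the data. On simulated counts for T1D against Control in WT, 80% of 200 genes with a log2 change of 1, among 14364, were recovered and 5.33% of calls were false. That change was larger than those of the mitosis genes (0.16 to 0.51) and was set equal in all WT T1D libraries. The rates therefore do not cover changes as small as these or libraries that stand apart. Promoters came from RefSeq (GRCm38.p6), and exon overlaps from GENCODE vM21. Tables and plots were made in Python 3.11.15 with pandas 2.3.3 and matplotlib 3.10.9.

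The members, role groups, and gene lists were chosen with earlier results of these data known. Named genes were 15 representatives of the roles, every member called in any comparison, the members with the highest and lowest log2 fold change or mean TPM, and in the other lists the called genes and the 2 largest changes. Intervals on promoter shares cover counting error only. Supplementary tables of the study were not used here. A listed marker is not named here.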

Additional observations from a re-analysis of the deposited data

Results flagged for a closer look

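Among 92 sets of values (22 named mitosis genes and their mean level, in each of 4 groups), 3 had 1 library far from the others by Dixon's ratio, the gap to the nearest library divided by the range of the group. Chance alone flags about 5% of such sets.

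Cenpe in WT T1D was flagged for A3906, at 95.7 CPM with a ratio of 0.6453. Cdca3 in KO T1D was flagged for A3675, at 190 CPM with a ratio of 0.6995. The mean log2(CPM + 0.5) of the 38 mitosis genes in KO Control was flagged for A3766, at 6.26 with a ratio of 0.6539, and this library also had the lowest erythroid and the highest osteoblast marker sum of the 23. Without it, 0 of 38 genes were called by edgeR for T1D against Control in KO, 0 had unadjusted p under 0.05, and the median log2 fold change was −0.03 in place of 0.03.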

How the results depend on the processing

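In WT T1D against WT Control, the 11 calls became 27 in A36 to A39 mice and 19 with DESeq2. They became 3 without a count filter, beside 60 of 18002 genes called higher. Without scaling factors they became 3, beside 76 of 14364 genes called higher. Limma gave 1 on log2(TPM + 1) and 1 on log2(TPM + 0.1), where 83 of 5154 and 80 of 5173 calls over all genes were higher. Without A3905 and A3906 the calls were 0, as they were over all genes. Leaving out 1 library gave 0 to 22, as named beside that result. RLE factors gave 11 and the ID series as a term 15, beside 204 and 479 of all genes called higher. The median of 0.32 became 0.0216 and 0.0226 on log2(TPM + 1) and log2(TPM + 0.1), where the median of all genes was −0.24 and −0.29, and the interaction median of −0.29 became −0.0363 and −0.0371, or −0.4297 in A36 to A39 mice. KO T1D against WT T1D had a median of −0.17, which became 0.0411 and 0.042 on these TPM scales, and 6 calls in place of 0 in A36 to A39 mice. The signs of 9 named genes turned on log2(TPM + 1) and log2(TPM + 0.1): Plk1 −0.0714 and −0.0722, Bub1b −0.0625 and −0.0645, Bub3 −0.0471 and −0.0476, Cenpe −0.0841 and −0.0893, Cenpf −0.1142 and −0.1225, Cdc20 −0.025 and −0.0254, Espl1 −0.1225 and −0.1293, Anln −0.0715 and −0.0749, and Top2a −0.0472 and −0.0476. The cause was not tested. The CHR share of 39.4% became 81.8% over the whole 300 bases, which include the 50 bases after the start. In KO T1D against KO Control and in the interaction, 0 genes were called under every alternative run. No paired analysis was possible because no mouse number is shared between groups. Every mitosis gene had at least 276 counts in every library.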

Other observations

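Other marrow lineages were described in the same WT comparison by lists of their markers, which do not measure the dividing cells of a lineage. Of 5 promyelocyte markers, 0 were called by edgeR and 0 had unadjusted p under 0.05. Their median log2 fold change was 0.12 on TMM-scaled counts and −0.15 on unscaled TPM, beside −0.24 over all genes on unscaled TPM. Elane, neutrophil elastase, had the highest value, 0.30. Of 7 neutrophil markers, 0 were called and 2 had unadjusted p under 0.05, with a median of 0.29, or −0.03 without A3905 and A3906. Retnlg (0.65) and Mmp8 (0.52), granule and secreted proteins of mature neutrophils, were highest and did not pass. Of 9 early B cell markers, 0 were called and 0 had unadjusted p under 0.05, with a median of −0.23, or 0.33 without these libraries, in which the B cell markers summed to 117 and 143 TPM compared with 466 to 1063 TPM elsewhere. Of 5 megakaryocyte markers, 0 were called and 1 had unadjusted p under 0.05 (Gp9, 0.33), with a median of 0.06. On the bone side, Ibsp (−0.78) and Runx2 (−0.66), a matrix protein and a transcription factor of osteoblasts, fell among 9 osteoblast markers. The median of the 9 was −0.75. Without A3905 and A3906 it was −0.37 with 0 calls, beside 0 calls over all genes tested. Spp1, osteopontin, was the 1 marker of that list above 0, at 0.66, and did not pass (adjusted p = 0.23, edgeR). Of 5 osteocyte markers, 0 were called by edgeR and 2 had unadjusted p under 0.05, with a median of −0.28, and values ran from −0.99 for Phex (adjusted p = 0.0796, edgeR) to 2.13 for Fgf23 (adjusted p = 0.0663, edgeR).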
